A study of Sus scrofa with 6 samples.

Results

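The 5 CC chemokine genes CCL2, CCL8, CCL3L1, CCL4 and CCL5 were examined in porcine aortic valve leaflets held under cyclic pressure. They were taken as every probe set, controls aside, whose platform annotation gives exactly 1 gene symbol that is one of these names. This gave 5 probe sets, 1 per gene, among 6765 genes named in this way and 23999 probe sets in all. The array annotation names 12 CC chemokines, and the 7 others are described beside these 5. None of the 5 probe set names carries the array maker's mark for probes shared between transcripts.

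Hypertensive leaflets were cycled between 0 and 120 mmHg and normotensive leaflets between 0 and 80 mmHg, for 24 h at 1 Hz, with 3 arrays in each group. All leaflets came from adult female pigs and carried no genetic change. In both groups the endothelium had been taken off with collagenase II, and the leaflets stood overnight in serum-containing medium before the bioreactor. The labels speak of biological replicates without saying whether they were separate animals, so the p-values below measure only the spread between these samples. The question is how the raised pressure changes transcript levels in the leaflet.

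CC chemokines are small secreted proteins named for a pair of adjacent cysteines. They bind G protein-coupled receptors on leukocytes and draw those cells along a gradient held on heparan sulfate. Many of their genes, those of the inflammatory CC chemokines, are induced by NF-kB, AP-1 and interferon signals. CCL2 and CCL8 are monocyte chemoattractant proteins. CCL4 and, by its human counterpart, CCL3L1 belong to the macrophage inflammatory proteins. CCL5, also called RANTES, attracts T cells and monocytes. In the RefSeq table of Sscrofa11.1, used here for gene order only, all 5 lie on the same chromosome. CCL4 and CCL3L1 have 0 protein-coding genes between them, and CCL8 and CCL2 have 1, the chemokine gene CCL11, while 19 separate CCL5 from CCL8.

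All 5 chemokine signals were higher on each of the 3 hypertensive arrays than on any of the 3 normotensive arrays. The median of the 5 log2 differences, hypertensive minus normotensive, was 2.65, against -0.041 over the 14399 probe sets above the low-intensity filter, of which 47.3% were higher. Of these probe sets 10.4% had groups that did not overlap with the hypertensive arrays higher. All 5 members had an unadjusted p under 0.05 with higher signal, a rule met by 1064 probe sets, or 7.39%. CCL3L1 and CCL5 passed the filter only through the hypertensive arrays, their normotensive geometric means of 41.5 and 30.5 lying under the filter signal of 48.5, so that their counts and the median above carry no weight as support. With intensities under that signal raised to it, a setting chosen after seeing the data, the median of the 5 was 2.47. None of the 5 passed the adjusted threshold of 0.05 (limma, Benjamini-Hochberg over all kept probe sets), which 0 probe sets, or 0.0%, passed, although 2436 had an unadjusted p under 0.05 in either direction. Without hypertensive replicate 2 all 5 passed, as did 3505 probe sets in all. An exact 2-sided permutation test gave p = 0.1 for each gene, the smallest that 3 arrays against 3 allow.

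**Figure D1:**
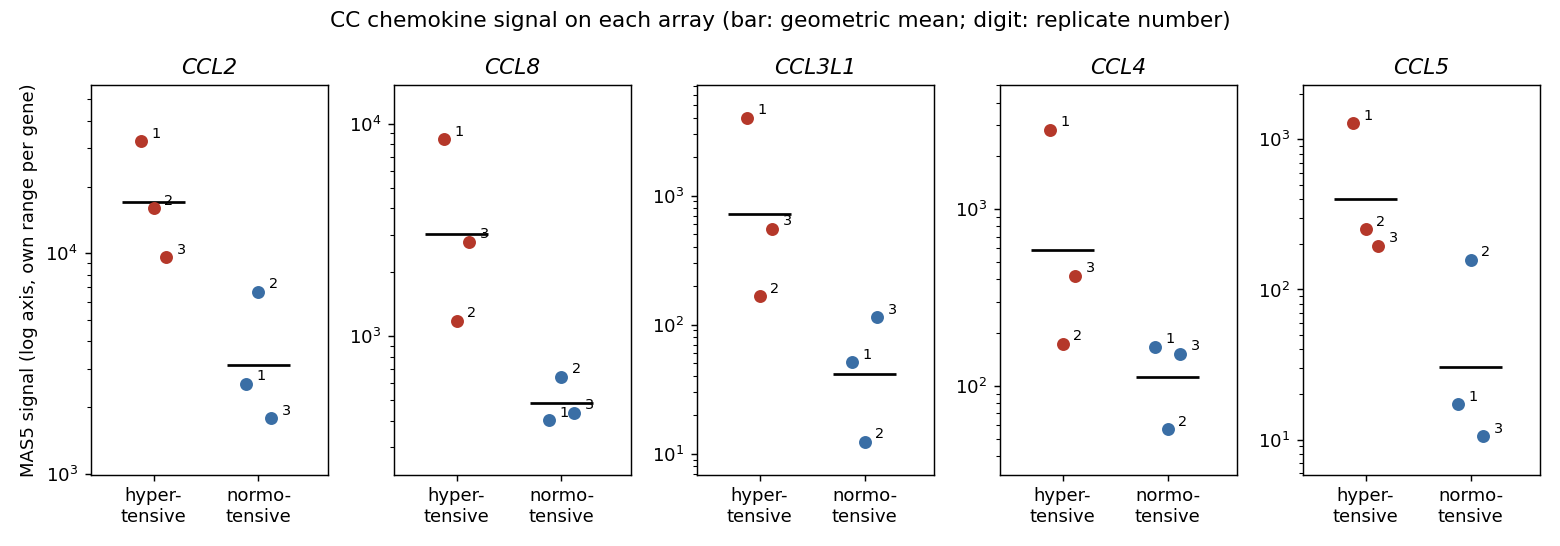
MAS5 signal of each CC chemokine on the 3 hypertensive arrays (left, red) and the 3 normotensive arrays (right, blue), on log axes with a range of their own, with the geometric mean as a bar and replicate numbers beside the points. In every panel the lowest hypertensive point lies above the highest normotensive point, narrowly so for CCL4 (173 against 167).

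CCL2, the main ligand of the monocyte receptor CCR2, had signals of 32267, 16017 and 9601 on hypertensive replicates 1, 2 and 3, against 2560.4, 6698 and 1782 on the normotensive ones. The groups stood apart, with the lowest hypertensive array 1.43 times the highest normotensive array. The log2 signal averaged 14.06 ± 0.88 in hypertensive leaflets and 11.61 ± 0.99 in normotensive leaflets (SD, n = 3 each). The log2 difference was 2.45 (SE 0.55), a 5.46-fold higher signal with a 95% interval of 2.26 to 13.1-fold (limma, adjusted p = 0.222). No single array moved this fold by more than 1.5 times when left out. Without hypertensive replicate 2, the difference of 2.49 passed (limma, adjusted p = 0.0275).

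CCL8, which binds CCR2 and further receptors, had signals of 8454, 1184 and 2779.9 on hypertensive replicates 1, 2 and 3, against 402, 644 and 435 on the normotensive ones. The normotensive arrays lay close together, with the highest 1.60 times the lowest, while the hypertensive arrays spread over 7.14 times. The log2 difference was 2.65 (SE 0.63), a 6.28-fold higher signal with a 95% interval of 2.29 to 17.2-fold (limma, adjusted p = 0.235). The fold was 3.76 without hypertensive replicate 1 and 10.04 without replicate 2, where it passed (adjusted p = 0.00465).

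CCL3L1 is named for the human gene that lies beside CCL3 as a near copy of it and signals through CCR1. Its signals were 3996, 165 and 550.4 on hypertensive replicates 1, 2 and 3, against 50.9, 12.4 and 114 on the normotensive ones. Hypertensive replicate 1 was 24.2 times replicate 2, the widest spread within a hypertensive group among the 5 genes. The log2 difference was 4.10 (SE 1.17), a fitted fold of 17.2 with a 95% interval of 2.68 to 110.3 (limma, adjusted p = 0.245). Normotensive replicate 2 and the normotensive geometric mean lay under the filter signal. With low intensities raised to that signal, hypertensive leaflets were at least 10.9-fold higher. The fitted fold was 7.26 without hypertensive replicate 1, 35.7 without hypertensive replicate 2, 9.38 without normotensive replicate 2 and 28.4 without normotensive replicate 3. With 64 added to each intensity before the logarithm it was 7.16. Without hypertensive replicate 2 it passed (adjusted p = 0.0131).

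CCL4, an attractant of monocytes and T cells, had signals of 2798, 173 and 421 on hypertensive replicates 1, 2 and 3, against 167, 56.8 and 152 on the normotensive ones. The groups were separated by little, the lowest hypertensive array being 1.04 times the highest normotensive array. The log2 difference was 2.38 (SE 0.93), a 5.22-fold higher signal with a 95% interval of 1.19 to 22.9-fold (limma, adjusted p = 0.278). The fold was 2.39 without hypertensive replicate 1 and 9.62 without replicate 2, where it passed (adjusted p = 0.0235), and 3.26 with array weights. Its unadjusted p of 0.0327 by limma went to 0.0662 without hypertensive replicate 1, 0.0551 without hypertensive replicate 3, 0.112 without normotensive replicate 2 and 0.0535 without normotensive replicate 3.

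CCL5, a ligand of CCR1 and CCR3, had signals of 1282, 252 and 195 on hypertensive replicates 1, 2 and 3, against 17.2, 157 and 10.5 on the normotensive ones. Normotensive replicate 2 alone lay above the filter signal in its group and came within 1.24 times of the lowest hypertensive array. The log2 difference was 3.71 (SE 1.06), a fitted fold of 13.05 with a 95% interval of 2.41 to 70.7 (limma, adjusted p = 0.246). With low intensities raised to the filter signal, hypertensive leaflets were at least 5.54-fold higher. Without normotensive replicate 2, both remaining normotensive arrays lay under that signal and the bound was at least 8.21-fold. The fitted fold was 7.66 without normotensive replicate 3 and 7.27 without hypertensive replicate 1. It was 7.84 with a pseudocount of 16 and 4.35 with 64. Without hypertensive replicate 2 it was 16.4 and passed (adjusted p = 0.0441).

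**Figure D2:**
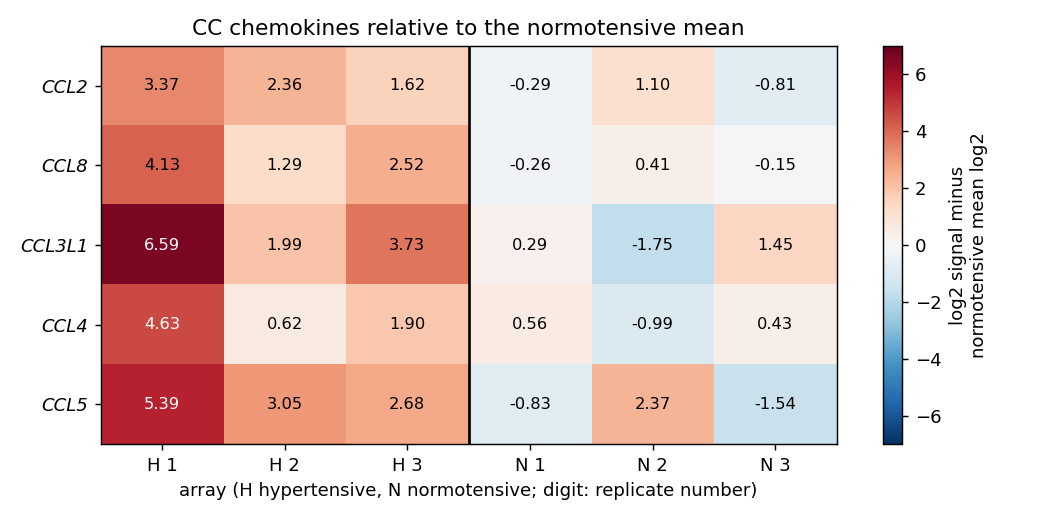
Log2 signal of each CC chemokine (rows) on each array (columns, H hypertensive and N normotensive, with replicate number) minus its normotensive mean, in colour and digits. Hypertensive replicate 1 holds the highest value in all 5 rows, from 3.37 for CCL2 to 6.59 for CCL3L1.

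The 5 genes shared 1 feature within the hypertensive group and differed in others. Hypertensive replicate 1 was the highest array for all 5, at 10.3 times the normotensive geometric mean for CCL2 and 96.3 times for CCL3L1. CCL2 and CCL5 had their lowest hypertensive signal on replicate 3, at 3.07 and 6.39 times that mean. CCL8, CCL3L1 and CCL4 had theirs on replicate 2, at 2.45, 3.98 and 1.54 times.

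The normotensive arrays separated the genes in a similar way, apart from CCL8. CCL2 and CCL5 were again lowest on replicate 3, and CCL3L1 and CCL4 on replicate 2, while CCL8 was lowest on replicate 1. Normotensive replicate 2 was the highest of its group for CCL2, CCL8 and CCL5, at log2 values of 1.10, 0.41 and 2.37 above the group mean. It was the lowest for CCL3L1 and CCL4, at -1.75 and -0.99. As a measure of likeness, the root mean square difference of these centred log2 values over the 6 arrays was smallest for CCL2 with CCL8, at 0.76, and for CCL8 with CCL4, at 0.83. It was largest for CCL3L1 with CCL5 and for CCL3L1 with CCL2, at 2.27 and 2.18. CCL4 and CCL3L1, neighbours in the genome, differed by 1.34.

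By the same measure, the 5 genes closest to each member were taken from all 5271 genes above the filter. CCL8 had the closest, at 0.26 for the collagenase MMP1 and for the interferon-induced transcription factor IRF1, followed by C1H15orf48, PMAIP1 and DDX58 at up to 0.35. The signals of IRF1 were 5788, 602 and 1305 on hypertensive replicates 1, 2 and 3, against 287, 284 and 219.7 on the normotensive ones, an order of hypertensive arrays like that of CCL8. CCL2 was closest to the adhesion molecule SELP at 0.38 and to PDE4B, a cyclic AMP phosphodiesterase, at 0.40, then to ARG1, TAPBP and CXCL16 at up to 0.56. PDE4B had signals of 15663, 3460.03 and 3209 on the hypertensive arrays, against 599, 2210.3 and 518 on the normotensive arrays, and like CCL2 was highest on replicate 2 of the normotensive group.

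CCL4 was closest to ARG2, the mitochondrial arginase, at 0.46, and to the protease ADAMTS1 at 0.51, then to SLC11A2, RGCC and STX11 at up to 0.59. ADAMTS1 shared the low normotensive replicate 2, with 9932, 2015 and 2516 on the hypertensive arrays against 1114, 418 and 1064 on the normotensive ones. CCL5 and CCL3L1, each with normotensive values under the filter signal, had larger distances to their nearest genes. The nearest gene lay 0.92 from CCL5, PDE4B again, followed by CYP3A29, SELP, FAM26F and ISG15 at up to 1.07. That nearest to CCL3L1 lay at 1.31, the interferon-induced IFIT2, followed by UBD, MARCH3, ACSL1 and SLC11A2 at up to 1.40. These distances describe 6 arrays and were not tested.

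Of the 7 other CC chemokines named on the array, 2 were above the filter and 5 were not, and neither of the 2 had higher signal. CCL14, an attractant of monocytes whose gene lies between CCL3L1 and CCL5 in the RefSeq order, had 65.3, 83.3 and 44.6 on hypertensive replicates 1, 2 and 3, against 114, 77.8 and 83.8 on the normotensive ones. The groups overlapped, with a log2 difference of -0.54 (SE 0.36; limma, adjusted p = 0.441). CCL24, an eosinophil attractant, also overlapped, at -0.39 (SE 0.39; limma, adjusted p = 0.590), a sign that turned under some of the alternatives. The homeostatic chemokines CCL19, CCL21, CCL25, CCL27 and CCL28 lay under the filter, with no signal over 50.5 on any array.

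No CC chemokine receptor above the filter had groups that stood apart. CCR1, which binds CCL5 and the macrophage inflammatory proteins, had 245, 278 and 851 on hypertensive replicates 1, 2 and 3, against 154, 519.7 and 217 on the normotensive ones. Its groups overlapped, and its highest hypertensive array was replicate 3, the lowest one for CCL2 and CCL5 (log2 difference 0.58, SE 0.59; limma, adjusted p = 0.606). CCR2, the receptor of CCL2 and CCL8, lay under the filter, with 9.33, 4.36 and 2.28 on the hypertensive arrays and 18.5, 27.3 and 4.60 on the normotensive ones. CCR3 and CCR7 also lay under it, and CCR9, a receptor of CCL25, had a log2 difference of -0.090 (SE 0.35; limma, adjusted p = 0.908) that turned positive in some alternatives. CCRL2, an atypical receptor that binds chemerin, had 625, 77.7 and 222 on hypertensive replicates 1, 2 and 3, against 64.1, 93.1 and 30.9 on the normotensive ones. Its groups overlapped (log2 difference 1.96, SE 0.74; limma, adjusted p = 0.274), and its fold of 3.88 was 2.31 without hypertensive replicate 1 and 6.54 without replicate 2. Normotensive replicate 3 lay under the filter signal, which limits this fold. In bulk leaflets, fewer cells of a type and less RNA per cell cannot be told apart.

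**Figure D3:**
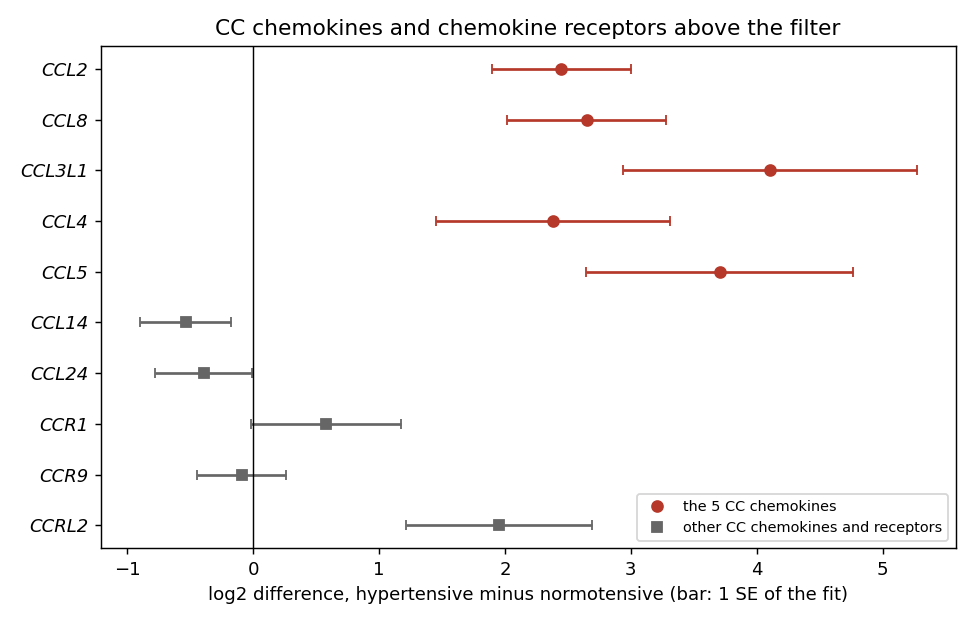
Log2 difference (hypertensive minus normotensive, bars of 1 SE of the fit) of the 5 CC chemokines (circles) and of the other CC chemokines and chemokine receptors above the filter (squares). The circles lie between 2.38 and 4.10, and the squares between -0.54 for CCL14 and 1.96 for CCRL2.

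Genes of the pathways known to induce CC chemokines were taken from lists drawn up with earlier results of these data known. Among all 5271 genes above the filter, 45.0% had higher means, 6.85% were higher and 10.2% lower at an unadjusted p under 0.05, and the median log2 difference was -0.068. Of 23 genes for NF-kB, AP-1 and their cytokine inputs, 15 were on the array and 12 above the filter. Of these, 10 were higher and 2 lower, with 6 higher and 0 lower at an unadjusted p under 0.05, 0 past the adjusted threshold, and a median of 0.83. NFKBIA encodes the NF-kB inhibitor IkBa, itself an NF-kB target, and had 17111, 8643 and 8687 on the hypertensive arrays, against 2531, 2265 and 2395 on the normotensive ones (log2 difference 2.18, SE 0.28). CEBPB and the TNF receptor TNFRSF1A had log2 differences of 1.24 (SE 0.28) and 1.20 (SE 0.25). IL1A, a cytokine that induces CCL2 in many stromal cells, had 2831, 226 and 449.5, against 100.3, 132 and 120.0, with a fold of 5.66 that became 2.73 when hypertensive replicate 1 was left out and 9.67 when replicate 2 was. IL1B had the largest log2 difference of the list, 2.96 (SE 0.97), with 8695, 524 and 612 on the hypertensive arrays, against 174, 247 and 137. The AP-1 genes JUN and FOS were the 2 with lower means, at -0.30 and -0.36, and TNF lay under the filter on average. TNF had 246 on hypertensive replicate 1, the array highest for all 5 chemokines, with 12.03 and 50.2 on replicates 2 and 3, against 22.4, 55.2 and 39.9 on the normotensive arrays.

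Of 19 genes for interferon inputs, 16 were on the array and 13 above the filter. Of these, 11 were higher and 2 lower, with 7 higher and 0 lower at an unadjusted p under 0.05, 0 past the adjusted threshold, and a median of 0.64. The genes of the interferons IFNG and IFNB1 lay under the filter. IFNA1 lay above it, with overlapping groups and a log2 difference of -0.20 (SE 0.31). IRF1 had a fold of 6.33 over normotensive leaflets (log2 difference 2.66, SE 0.72), 3.39 without hypertensive replicate 1 and 10.5 without replicate 2. The receptor chain IFNAR2 was at 2.22 times (log2 1.15, SE 0.31). The transcription factors IRF7 and IRF8 were at 3.73 and 2.84 times, and IRF7 at 2.31 times without hypertensive replicate 1. On normotensive replicate 1 IRF7 had 44.5, under the filter signal, which limits its fold.

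Proteases that trim CC chemokines in human were also measured. Of 10 listed, 9 were on the array and 7 above the filter, with 6 higher and 1 lower, 5 higher and 0 lower at an unadjusted p under 0.05, 0 past the adjusted threshold, and a median of 0.76. DPP4 and MMP3 passed the filter only through the hypertensive arrays, their normotensive geometric means being 41.0 and 30.9. The counts and median of this list therefore carry no weight as support. DPP4, which trims the amino terminus of CCL5, had 102, 138 and 122 on hypertensive replicates 1, 2 and 3, against 29.4, 47.4 and 49.6 on the normotensive ones (fitted log2 difference 1.54, SE 0.35). Normotensive replicates 1 and 2 lay under the filter signal, which limits this difference. Unlike the chemokines, DPP4 had its lowest hypertensive signal on replicate 1. MMP1 and MMP3 cleave CCL2 and CCL8. MMP1 was at 6.90 times (log2 2.79, SE 0.60), 4.57 without hypertensive replicate 1 and 10.7 without replicate 2. MMP3 was under the filter signal on all 3 normotensive arrays. Its hypertensive signal was at least 67.6-fold higher, a bound of 32.6 without hypertensive replicate 1 and 137 without replicate 2. MMP2 was at 1.48 times.

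Genes for heparan sulfate chains and the core proteins that hold chemokines were read in the same way. Of 14 listed, 6 were on the array and 5 above the filter, with 3 higher and 2 lower, 0 at an unadjusted p under 0.05 in either direction, and a median of 0.20. That median turned to -0.155 under the 60th percentile filter and to -0.106 with array weights. The syndecan SDC1 had 311, 329.7 and 329.7 on the hypertensive arrays, against 448, 501 and 439.9 on the normotensive ones (log2 difference -0.52, SE 0.25), although a further SDC1 probe set had the opposite sign. SDC2, EXT1 and HS2ST1 overlapped between groups, at 0.20, 0.29 and -0.91. For EXT1 the sign turned under some of the alternatives, and HS2ST1 was at 0.534 times the normotensive signal, or 0.330 times without hypertensive replicate 2. Over the 21 genes named by smallest p from these lists and those of chemokines and receptors, adjusted p by limma lay between 0.115 and 0.908.

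**Figure D4:**
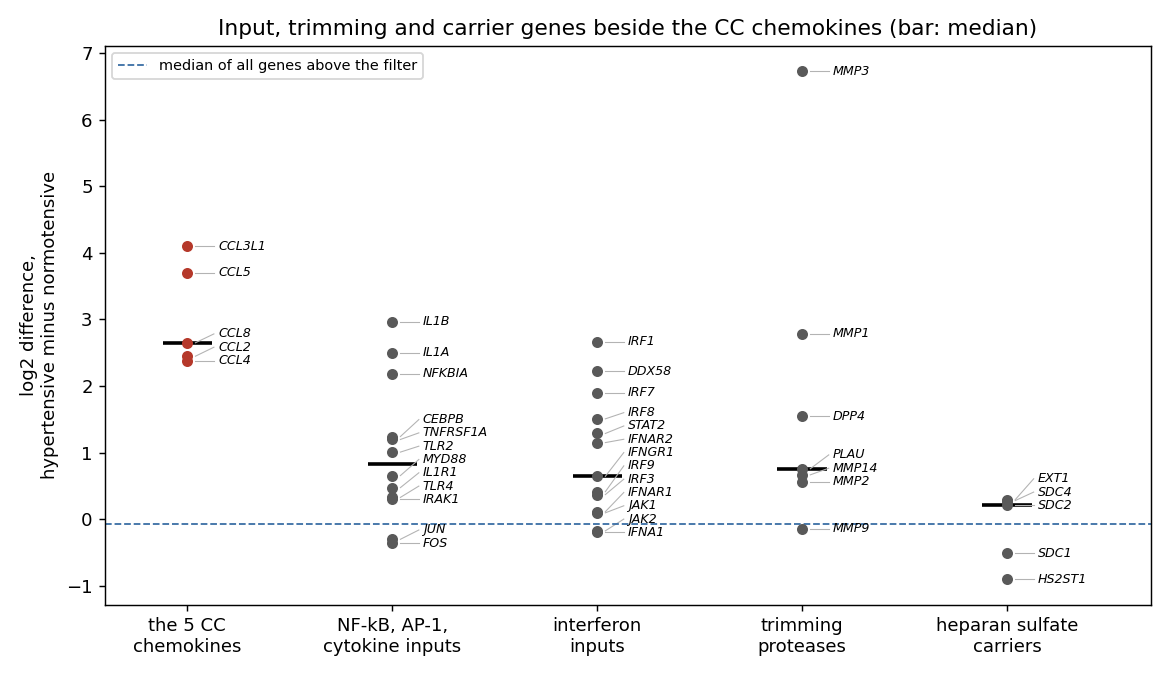
Log2 difference (hypertensive minus normotensive) of the 5 CC chemokines and of the genes above the filter in 4 lists, with the list median as a bar and the median of all genes above the filter, -0.068, dashed. The chemokines lie between 2.38 and 4.10, and the heparan sulfate carriers between -0.91 and 0.29.

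Marker genes of other cells were read beside the chemokines. Of 16 monocyte and macrophage markers, 10 were on the array and 8 above the filter, with 4 higher and 4 lower and 0 at an unadjusted p under 0.05, and ITGAM and FCGR1A lay under the filter. Their summed signal was 1564 to 5138 on hypertensive arrays and 3427 to 6485 on normotensive arrays. It was lowest on hypertensive replicate 1, where all 5 chemokines were highest, with CD163 at 270.2 there against 1294 to 2261 on the normotensive arrays, although the sign between groups was reversed for another CD163 probe set. CD163 and MRC1 made up much of the sum, at 1794 and 1524 on hypertensive replicate 2. AIF1, MRC1, C1QA and TYROBP were also lowest on hypertensive replicate 1, but FCGR3A and CD86 were not. FCGR3A had 499 there and CD86 214, against 281 to 756 and 96.1 to 234 on the normotensive arrays. CD14, a monocyte coreceptor for lipopolysaccharide, ran the other way from CD163, with 68.6, 115.0 and 51.0 on the hypertensive arrays against 41.3, 61.5 and 26.4 on the normotensive ones. It passed the filter only through the hypertensive arrays, its normotensive geometric mean being 40.7. The summed signal was highest on normotensive replicate 2, where CCL2, CCL8 and CCL5 were the highest of their group. Of 16 T and NK cell markers, 9 were on the array and 0 above the filter, CD3D, CD3E and CD2 among those under it. The part of leukocytes in the chemokine differences was not tested.

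Among 12 other leukocyte markers, 6 were on the array and 2 above the filter. PTPRC was lower (unadjusted p = 0.0416 by limma) and passed the filter only through the normotensive arrays, its hypertensive geometric mean being 31.0. CORO1A had a higher mean but a further probe set of opposite sign. The 2 summed to 117 to 209.7 on hypertensive and 121 to 221 on normotensive arrays. S100A9, a neutrophil and monocyte gene under the filter on average, had 342, 25.6 and 76.7 on hypertensive replicates 1, 2 and 3, against 18.0, 7.76 and 20.2 on the normotensive ones. Its hypertensive order was that of CCL8, CCL3L1 and CCL4. The list's other genes under the filter, S100A8, CD79B and MS4A2, overlapped between groups. S100A8 had 44.9, 36.8 and 26.2 on the hypertensive arrays, against 41.9, 3.77 and 16.5 on the normotensive ones. Of 12 endothelial markers, all on the array, 6 were above the filter, 1 higher (SELP) and 5 lower, with 1 in each direction at an unadjusted p under 0.05, summing to 1988 to 3838 on hypertensive and 2474 to 3058 on normotensive arrays. The other 6 lay under the filter on average, CDH5, SELE, VWF, KDR, TIE1 and NOS3. Of these, the junction gene CDH5 had 68.4, 115.3 and 84.9 on the hypertensive arrays, against 30.3, 12.3 and 40.5 on the normotensive ones. The adhesion molecule SELE had 443, 64.6 and 29.3, against 1.11, 4.499 and 1.62. Both had groups that stood apart, and neither was tested; their part in the chemokine differences was not tested either. Of 12 interstitial cell markers, 10 were on the array and 9 above the filter, 8 of them lower and 2 of these at an unadjusted p under 0.05, with sums of 53576 to 65349 on hypertensive and 76221 to 77978 on normotensive arrays. VIM, the vimentin gene of mesenchymal cells, had 18606 to 26412 on hypertensive and 22536 to 24275 on normotensive arrays. The labelled tissue thus held this transcript at high signal on all 6 arrays, and the part of the lower marker sums in the chemokine differences was not tested.

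Across all kept probe sets, the mean correlation with the 3 normotensive arrays was 0.817, 0.895 and 0.950 for hypertensive replicates 1, 3 and 2 in turn, where pairs of normotensive arrays reached 0.952 to 0.978. The ratio of 3′ over 5′ control signals was taken after 2 rounds of amplification, so it is no measure of RNA integrity alone. For GAPDH it was 3.67, 2.91 and 6.04 on hypertensive replicates 1, 2 and 3 and 3.02, 2.11 and 7.52 on the normotensive ones. For actin it was larger, at 79.5, 81.7 and 52.5 on the hypertensive arrays and 49.1, 41.1 and 109 on the normotensive ones, and for EF1A it lay between 1.30 and 1.65 on all 6. Their part in the chemokine differences was not tested.

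**Figure D5:**
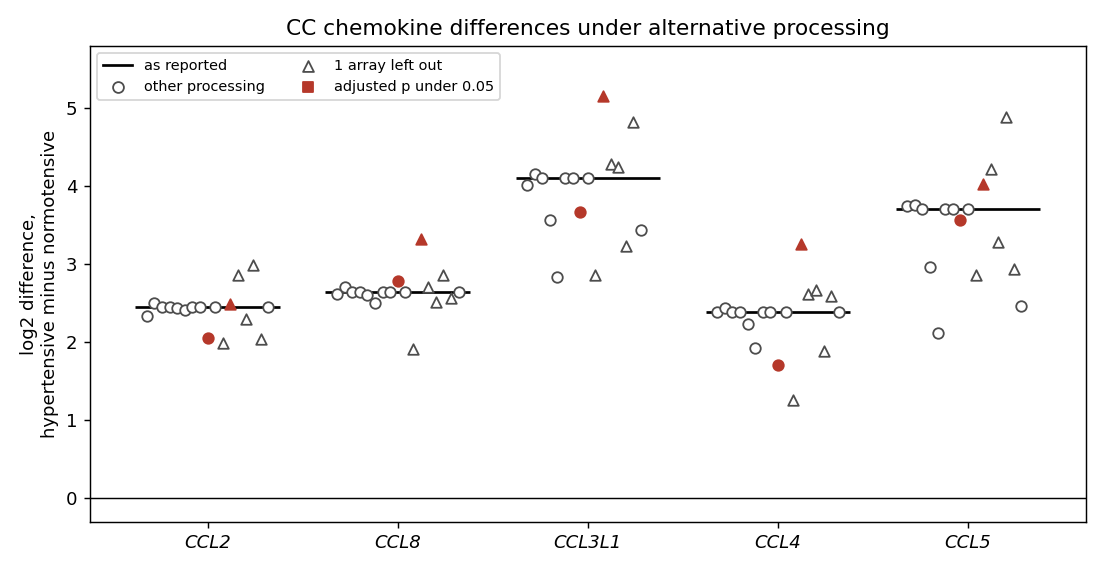
Log2 difference (hypertensive minus normotensive) of each CC chemokine as reported (bar), under other processing (circles) and with 1 array left out (triangles), filled where the adjusted p by limma was under 0.05. All points lie above 0, from 1.26 for CCL4 to 5.16 for CCL3L1, and 2 points per gene are filled.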

How the data were processed

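The authors deposited 1 intensity per probe set and array from the Affymetrix Porcine Genome Array. Per the submitters' processing notes these were made with GCOS and MAS5, in versions not given in the sources used here. Per the labels, 70 ng of RNA per sample went through 2 rounds of amplification. The mean intensity, after trimming 2% of probe sets at each end, was 500.1 on each of the 6 arrays, so the values had been scaled to a common level, which removes any difference in total RNA. Precision is limited by the 3 arrays per group.

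Of 24123 probe sets, 124 controls were left out. The platform annotation gave 10069 of the others 1 symbol, 198 several and 13732 none; 9961 of the first kind matched the RefSeq table of Sscrofa11.1 by gene ID, and 0 symbols needed changing. The log2 of each intensity was used, without a pseudocount. Probe sets at or above the 40th percentile of mean log2 intensity, a signal of 48.5, were kept (14399). The test was that of limma 3.58.1 (R 4.3.3), with an intensity trend, 2-sided, adjusted by Benjamini-Hochberg over all kept probe sets. The fit was tested on simulated data. Genes with several kept probe sets went by the brightest. From each list, the 4 genes of smallest p and any with an unadjusted p under 0.01 were named. JUN, FOS, IL1B, IFNA1, MRC1, TYROBP, FCGR3A, CD86, VIM, S100A9 and the genes under the filter fall outside this rule and were named after their values were seen. The members and lists were chosen with earlier results of these data known. The 16 alternatives were quantile normalization, shifting arrays to 1 median, dropping the filter or raising it to the 60th percentile, pseudocounts of 16 and 64, no trend, robust variances, array weights, replicate number as a block, and each array left out. A floor at the filter signal was added after seeing the data.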

Additional observations from a re-analysis of the deposited data

How the results depend on the processing

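The direction of CCL2, CCL8 and CCL4 held in all 17 alternatives, and that of CCL3L1 and CCL5 in the 16 that kept them; both fell under the 60th percentile filter, which left 3 members with an unadjusted p under 0.05 and 3 with groups apart. Array weights, which were 0.289, 0.195 and 2.38 for hypertensive replicates 1, 2 and 3 and 6.96, 0.931 and 1.15 for the normotensive ones, so that replicate 3 and replicate 1 led their groups, let all 5 members pass, with log2 differences of 2.06 for CCL2, 2.78 for CCL8, 3.67 for CCL3L1, 1.70 for CCL4 and 3.57 for CCL5, among 5639 probe sets past the adjusted threshold and 7030 at an unadjusted p under 0.05, 3075 of them higher. With 1 array left out, the log2 difference was 1.99 to 3.00 for CCL2, 1.91 to 3.33 for CCL8, 2.86 to 5.16 for CCL3L1, 1.26 to 3.27 for CCL4 and 2.86 to 4.89 for CCL5, the last against 2 arrays under the filter signal. In the same fits 0 to 3505 probe sets passed, 0 to 5 of them members, 1139 to 5673 had an unadjusted p under 0.05, and 536 to 2449 of those were higher. The upper ends of these counts came without hypertensive replicate 2, and without normotensive replicate 2 the number passing was 1. The design text states no pairing, so the replicate numbers were not taken as pairs. Deviations of same-numbered arrays correlated at 0.059, 0.072 and 0.226, and those of differently numbered arrays at -0.137 to 0.041. Each hypertensive array correlated best with its own number, a hint of pairing from the data only. With the replicate block 0 probe sets passed and 2865 had an unadjusted p under 0.05. Under it the SE was 0.53 for CCL4, whose unadjusted p by limma was 0.00252, and 0.68 for CCL3L1. The adjusted p of the members by limma lay there between 0.133 and 0.160. Of 184 list medians, 167 moved by no more than 1 standard error over the genes of the list, or of the fit for the list with 1 gene. Raising low intensities to the filter signal, chosen after seeing the data, changed no call of the members. Low signals limit the folds of CCL3L1 and CCL5 most.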
